A study of Mus musculus with 4 samples.

Results

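The genes described are 40 genes of striated muscle, the contractile tissue of skeletal muscle and heart, measured in the adult mouse ureter. They were listed by symbol, and every probe set whose only annotated symbol is one of them was taken. All 40 had such a probe set, 58 probe sets in all, of 18193 named genes and 45101 probe sets on the arrays. Where a gene had several probe sets, the one highest on average gives its level. The list was drawn up with earlier results on these arrays known, so the levels themselves bear on the choice of members and are given as a description, without a test of a difference between samples. By known use the list holds 14 isoforms of fast fibres, 8 of slow fibres, 3 of heart, 2 developmental myosins, 6 sarcomere and energy genes of both fibre types, 4 genes of excitation-contraction coupling and the endplate, and 3 myogenic transcription factors.

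All 4 samples are adult ureter, Theiler stage 28, from male FVB/N mice with the SMGA/EGFP transgene, in which smooth muscle gamma actin sequences drive a green fluorescent protein. No other allele and no agent is named in the labels, and there is no second group. Fluorescence guided the dissection of the tube between kidney and bladder, so each array reads a whole piece of tissue and not sorted cells. The samples were not pooled, separate animals are not mentioned in the labels, and the numbers 1 to 4 given to the replicates only name them. Their RNA went through 2 rounds of amplification before it was read on Affymetrix MOE430 arrays.

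Striated muscle contracts when myosin heavy chains pull on actin filaments, and the troponin complex on the thin filament sets off the pull when calcium binds. Most of these proteins come in isoforms. Fast fibres use Myh1, Myh2 and Myh4 with the fast troponins and light chains, slow fibres use Myh7 with slow troponins, and heart shares several slow genes and adds its own, such as Myh6 and Tnni3. The ureter's own wall is smooth muscle, which contracts with Myh11 and has no troponin-based switch.

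Levels are log2(intensity + 16). Background was set on each array at the level that 95% of 87 chemosensory receptor probe sets, for genes of smell and taste, stay under. This threshold lay between 6.99 and 7.56. All arrays had been scaled to the same trimmed mean. The median level over all non-control probe sets still differed, at 7.88 in replicate 3 and 7.32, 7.15 and 7.61 in replicates 1, 2 and 4. The ratio of 3' to 5' signal of Gapdh was 31.62 in replicate 3 and 34.35, 36.94 and 18.77 in replicates 1, 2 and 4. For beta actin it was 5.27 in replicate 3 and 8.23, 19.8 and 4.43 in replicates 1, 2 and 4. Signal far from the 3' end was thus weak on every array, and by beta actin weakest in replicate 2. The smooth muscle genes that define the tissue were present, with 9 or 10 of 10 over the threshold in each sample. Of 8 genes of the ureter's lining, the urothelium, 6 were over the threshold in every sample, among them the uroplakins Upk1a, Upk1b and Upk2 at 9.33 to 15.73. The other 2, the uroplakin Upk3a and the keratin Krt20, passed it in replicate 3 only. Levels of different probe sets cannot be set against each other, so isoforms were compared through each gene's deviation, its level in a sample minus the mean of the other 3 samples.

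Striated muscle genes, above all those of fast fibres, were far higher in replicate 3 than in the other samples. In replicate 3 the threshold was passed by 32 of the 40 genes, and in replicates 1, 2 and 4 by 8, 13 and 11. Over all named genes 67.4% passed it in replicate 3, and 66.9%, 68.5% and 66.0% did elsewhere. The summed intensity of the 40 genes was 288404 in replicate 3 and 7527, 5714 and 8895 in replicates 1, 2 and 4. In bulk tissue, fewer cells of a type and less RNA per cell cannot be told apart. Replicate 3 held the highest level of 35 of the 40 genes, and replicates 1, 2 and 4 that of 1, 1 and 3. Over all named genes those shares were 33.6% for replicate 3 and 21.5%, 22.4% and 22.5% for the others. In 23 of the 40 the level in replicate 3 stood over 2 log2 units, a factor of 4, above every other sample (1.86% of all named genes). For replicates 1, 2 and 4 that count was 0, 0 and 0 of 40, with 0.506%, 0.346% and 0.126% of all named genes. These shares describe genes that were picked on the same levels, and nothing further is read from them.

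**Figure D1:**
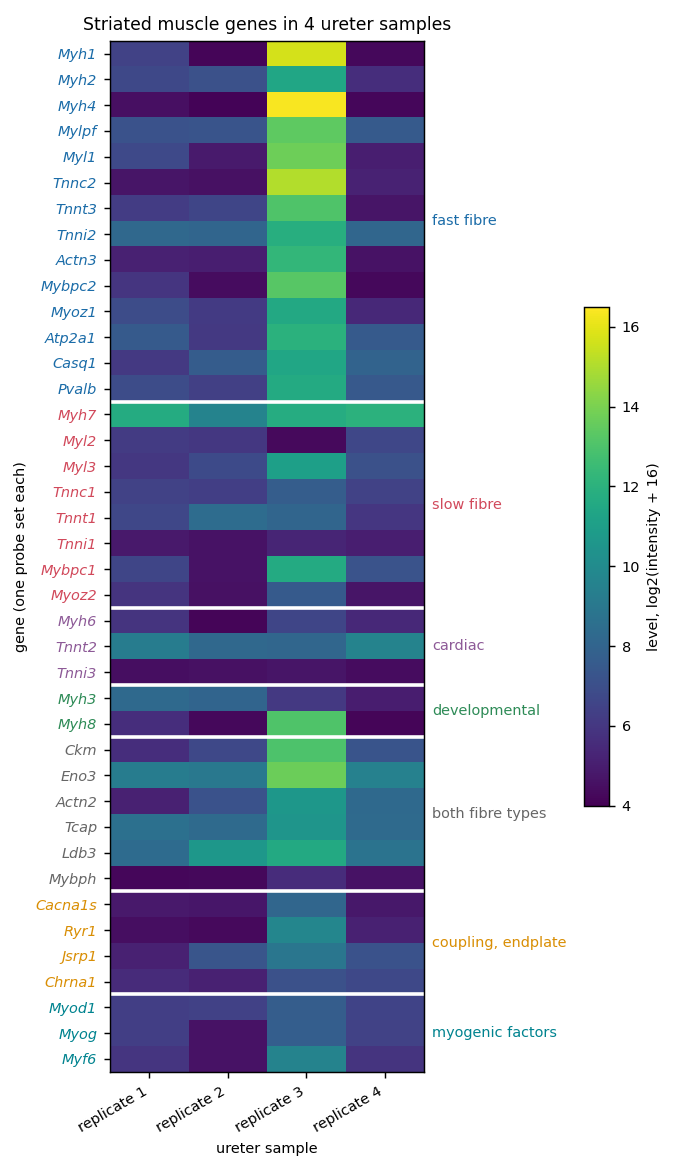
Level of each of the 40 genes, log2(intensity + 16), in the 4 ureter samples, with genes in rows, their names coloured by class, and samples in columns. Cell colours compare samples along a row only, and the 14 fast fibre rows are brightest in replicate 3, while Myh7 is bright in every column.

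The fast myosin heavy chains, the motors of the quickest fibres, differed widely between samples, Myh4 by the widest gap of all named genes and Myh2 by a smaller one. Myh4, the chain of the fastest fibre type in mice, had levels of 4.52, 4.14, 16.39 and 4.23 in replicates 1 to 4. Replicate 3 stood alone, 11.87 log2 units above the next sample, and the other 3 were below their thresholds. Against those thresholds its signal in replicate 3 was at least 585-fold higher, where a fold is on the scale of intensity + 16 and a dim sample counts at its threshold. Myh1, the chain of an intermediate fast type, had 6.49, 4.16, 15.71 and 4.25, at least 364.5-fold higher in replicate 3. Myh2, the most oxidative of the fast chains, had 6.70, 7.11, 11.42 and 5.63, where replicate 2 lay just over its threshold of 6.99 and replicate 3 was at least 18.1-fold higher than the others.

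The 3 fast myosins are closely related in sequence and lie side by side on chromosome 11 in the order Myh3, Myh2, Myh1, Myh4 and Myh8, so their probe sets can share signal. Myh1 shows this limit. Probe set 1427520_a_at, with an ending for alternative transcripts of 1 gene, read 15.71 in replicate 3. Probe set 1427868_x_at, with an ending for probes that may match other genes, read 15.69. The remaining one, 1452465_at, read 5.11 there and was under the threshold in all 4 samples. Both Myh4 probe sets, with neither ending, were high in replicate 3, at 16.39 and 11.92. How much of the Myh1 signal belongs to Myh1 was not tested.

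Myh8, the perinatal myosin next to Myh4, followed the fast chains. It had 5.66, 4.29, 13.08 and 4.19, over the threshold in replicate 3 only and at least 58.9-fold higher there. Myh3, the embryonic myosin, did not. Its levels were 8.25, 8.03, 6.09 and 4.98, over the threshold in replicates 1 and 2 and lowest in replicate 4. The developmental myosins thus had their highest levels in different samples, and the part of shared probe sequence in the Myh8 signal was not tested.

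The promoter windows of the genes with the widest gaps are given here because those genes were high together in replicate 3, with slow Tnnc1 set beside fast Tnnc2 as the contrasting isoform of the same protein. Each is the RefSeq window of 300 bases around the gene's start in build GRCm38.p6, written on the gene's strand. Capitals mark E-boxes, CANNTG, the binding motif of the myogenic factors, and matches to the MEF2 site, the motif of another muscle factor family.
Myh4 (chr11:67237562-67237861, plus strand): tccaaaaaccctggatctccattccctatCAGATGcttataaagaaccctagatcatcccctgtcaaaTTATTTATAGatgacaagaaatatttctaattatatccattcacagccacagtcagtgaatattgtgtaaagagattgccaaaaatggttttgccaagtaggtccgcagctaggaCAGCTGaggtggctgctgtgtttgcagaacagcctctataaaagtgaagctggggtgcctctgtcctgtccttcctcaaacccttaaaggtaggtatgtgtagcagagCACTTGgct
Myh1 (chr11:67199852-67200151, plus strand): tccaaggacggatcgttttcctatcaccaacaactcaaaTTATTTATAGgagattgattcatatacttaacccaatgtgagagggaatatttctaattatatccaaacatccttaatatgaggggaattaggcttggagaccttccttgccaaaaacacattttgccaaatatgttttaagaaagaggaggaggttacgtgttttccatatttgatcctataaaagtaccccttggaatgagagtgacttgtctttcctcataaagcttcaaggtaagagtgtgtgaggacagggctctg
Tnnc2 (chr2:164779685-164779984, minus strand): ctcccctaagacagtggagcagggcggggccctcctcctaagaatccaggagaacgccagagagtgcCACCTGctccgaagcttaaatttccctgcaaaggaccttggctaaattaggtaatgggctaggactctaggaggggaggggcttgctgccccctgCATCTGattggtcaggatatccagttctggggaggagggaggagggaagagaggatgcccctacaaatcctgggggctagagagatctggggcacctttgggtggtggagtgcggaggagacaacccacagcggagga
Tnnc1 (chr14:31208062-31208361, plus strand): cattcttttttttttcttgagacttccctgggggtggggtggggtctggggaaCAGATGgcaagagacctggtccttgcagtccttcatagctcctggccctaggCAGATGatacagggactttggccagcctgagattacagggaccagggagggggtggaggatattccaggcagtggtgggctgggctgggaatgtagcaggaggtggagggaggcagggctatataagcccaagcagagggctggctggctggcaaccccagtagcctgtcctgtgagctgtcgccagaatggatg
The Myh4 window holds 3 E-boxes, 1 of them CAGCTG, and 1 MEF2 site starting at base 69. The Myh1 window holds 0 E-boxes and 1 MEF2 site starting at base 40. Both windows share a run of 20 bases, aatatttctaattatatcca, starting at base 88 in Myh4 and 86 in Myh1. The Tnnc2 and Tnnc1 windows hold 2 E-boxes each and no MEF2 match. Tnnc2 set replicate 3 apart by 9.87 log2 units and Tnnc1 by 1.19, and a link between motifs and gaps was not tested. A missing match says only that the letters are not in this window.

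RefSeq windows were found for 32 of the 40 genes, 38 in all, since a gene can have several starts whose windows may overlap. Searched on both strands, an E-box occurred in 32 of the 38 windows (84.2%) and in 72.3% of the 32851 windows in the table. CAGCTG, which is itself an E-box, occurred in 17 of 38 (44.7%) against 16.3% of all windows. A MEF2 site occurred in 5 of 38 (13.2%) against 3.19%, and TATAAA in 10 of 38 (26.3%) against 13.6%. The CArG box, the motif of serum response factor, occurred in 4 of 38 windows (10.5%) against 1.63% of all. Whether the fast and slow classes differ in any motif was not tested.

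The fast troponins, which bind calcium (Tnnc2), inhibit (Tnni2) and anchor the complex (Tnnt3), were also highest in replicate 3. Tnnc2 had 4.72, 4.57, 15.04 and 5.18, at least 229.7-fold higher in replicate 3. Tnnt3 had 6.23, 6.63, 13.05 and 4.69, at least 57.9-fold higher. Both were over the threshold in replicate 3 only. Tnni2 differed from them in having signal elsewhere, with 8.24, 8.07, 11.86 and 8.12, over the threshold in every sample and 13.2-fold higher in replicate 3. Its probe set 1416889_at gave the same picture, at 7.88 to 7.94 in the other samples and 12.14 in replicate 3, while 1438608_at stayed under the threshold throughout.

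The slow and cardiac troponins gave little or no such difference. Tnnc1, the troponin C of slow fibres and heart, had 6.48, 6.30, 7.67 and 6.47. Replicate 3 exceeded its threshold of 7.56 by a small margin and the others did not reach theirs. Tnni1, the slow troponin I, had 4.84, 4.59, 5.28 and 5.07, and Tnni3, the cardiac one, 4.48, 4.54, 4.71 and 4.42. Both stayed under the threshold in all 4 samples. Tnnt1, the slow troponin T, had 6.64, 8.42, 8.10 and 5.99, with replicates 2 and 3 close together and over their thresholds. No array of slow muscle or heart was in this series, so whether these probe sets would read a true signal was not tested.

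Tnnt2, the cardiac troponin T that also occurs in developing skeletal muscle, was over the threshold in every sample, with 9.27, 8.21, 8.14 and 9.60. Replicates 2 and 3 were the low ones and lay close together. The level comes from an _a_at probe set, and 1424967_x_at, with 7.67 to 9.10, was likewise highest in replicate 4. By 1424967_x_at replicate 2 was lowest, at 7.67, and replicate 3 had 7.86. The remaining one, 1440424_at, stayed under the threshold in all samples and was highest in replicate 3, at 7.09 against 5.42 to 5.64. The probe sets of Tnnt2 therefore disagree on both presence and order.

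The myosin light chains, small subunits at the neck of the motor, split in the same way except for Myl3. Mylpf, the fast regulatory chain, had 7.16, 7.25, 13.39 and 7.53, at least 66.2-fold higher in replicate 3 and also just over the threshold in replicates 2 and 4. Myl1, the fast essential chain, had 6.76, 4.89, 13.72 and 5.07, at least 92.15-fold higher. Myl2, the regulatory chain of slow fibres and ventricle, had 6.18, 6.04, 4.33 and 6.66. It was under the threshold in all samples and lowest in replicate 3.

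Myl3, the essential chain shared by slow fibres and ventricle, was high in replicate 3 although classed as slow. It had 6.04, 6.80, 11.04 and 7.10, at least 14.3-fold higher in replicate 3 and over the threshold there only. All 3 of its probe sets showed this, and 1427768_s_at and 1427769_x_at read 13.45 and 12.38 in replicate 3 against 4.32 to 5.11 elsewhere. Mybpc1, the slow type of myosin binding protein C, which fast fibres also use, was the other slow gene with a wide gap, at 6.61, 4.59, 11.65 and 7.20. Its 3 probe sets were all highest in replicate 3. Myoz2, a slow and cardiac Z-disc protein that binds calcineurin, had 5.86, 4.57, 7.52 and 4.73, under the threshold in every sample.

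Myh7, the myosin heavy chain of slow fibres and ventricle, had a pattern of its own. It had 11.71, 9.58, 11.73 and 12.03, over the threshold by more than 2 log2 units in every sample. Replicate 3 did not stand out, and replicate 2 was the low one. The level rests on a single probe set, and no other slow gene was over the threshold in all 4 samples. Of the 8 slow genes 3 were over it in none.

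Over the whole classes, the median deviation in replicate 3 was 6.64 for the 14 fast genes, with a range from 3.72 to 12.10. For the 8 slow genes it was 1.17, from -1.96 to 5.52, and for the 3 cardiac genes 0.23, from -0.88 to 1.42. Over all named genes it was 0.08. Replicate 3 was over 2 log2 units above every other sample for 14 of 14 fast genes, 2 of 8 slow genes (Myl3 and Mybpc1) and 0 of 3 cardiac genes. In 9 pairs of a fast isoform and its slow or broader counterpart, the fast gene had the larger deviation in replicate 3 in 9 of 9. Each gene was read from its probe set highest on average, and the essential light chain pair depends on that choice. Myl1 had 8.15 in replicate 3. Myl3 had 4.39 by the probe set used, 7.48 by 1427769_x_at and 8.65 by 1427768_s_at. By the probe sets used, the difference was widest for Myh4 over Myh7, at 11.47 log2 units. Next came Tnnc2 over Tnnc1 at 8.97 and Mylpf over Myl2 at 8.04. It was narrowest for Mybpc2 over Mybpc1, at 2.83. Deviations also use levels under the threshold, so their sizes are not exact. Myh4 and Tnnc2 were under it in replicates 1, 2 and 4, and Myl2 in all 4 samples. Myh7 was high in every sample, at 9.58 to 12.03. From such a level the same added signal gives a smaller deviation than from the 4.14 to 4.52 of Myh4 outside replicate 3. The 11.47 therefore depends on these levels too. With 1 or 64 added to the intensity in place of 16, the Myh4 deviation in replicate 3 was 14.30 or 10.31. The levels that chose the list are the ones compared here, so these counts describe it.

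**Figure D2:**
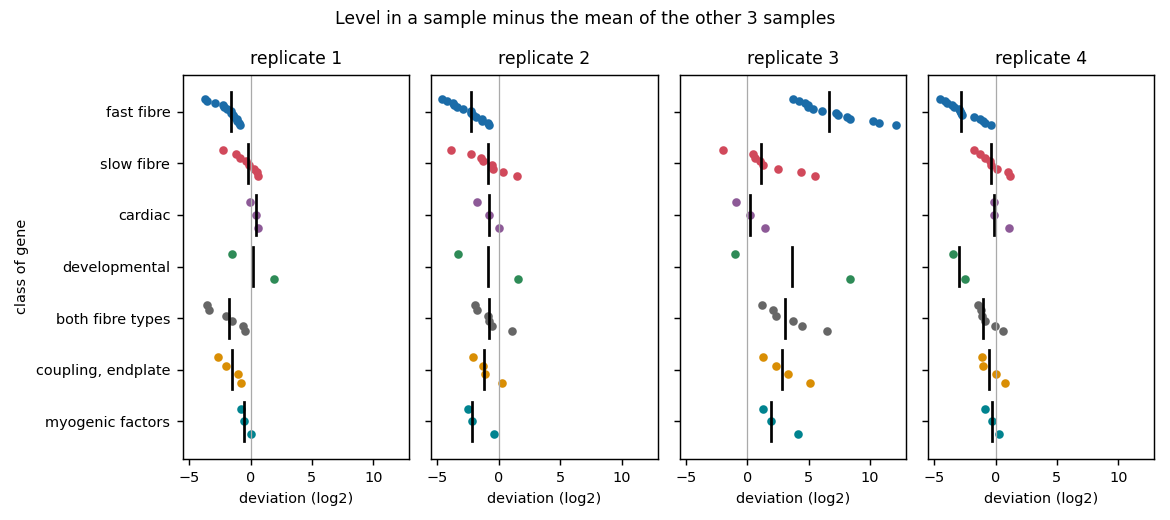
Deviation of each gene, its level in a sample minus the mean of the other 3 in log2 units, by class (rows) and sample (panels), with a point per gene and a black line at the class median. In replicate 3 the fast genes lie between 3.72 and 12.10 and the cardiac genes between -0.88 and 1.42.

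**Figure D3:**
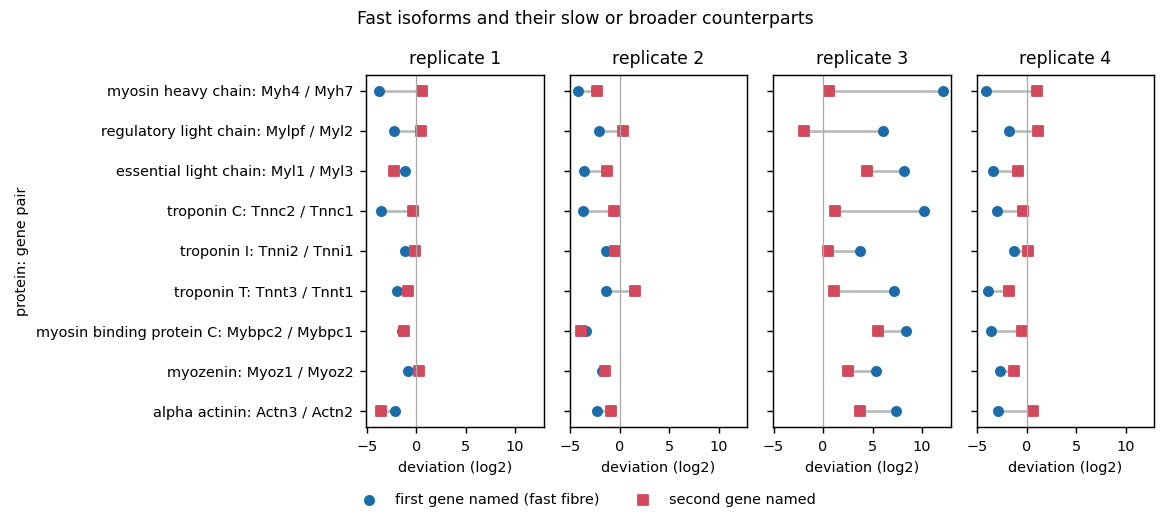
Deviations in log2 units of 9 pairs of isoforms in each of the 4 samples, with the fast gene as a circle and its slow or broader counterpart as a square. In replicate 3 the circle lies to the right of the square in all 9 pairs, by 2.83 to 11.47 log2 units, with 1 probe set per gene. By another Myl3 probe set, 1427768_s_at, the Myl3 deviation of 8.65 exceeds the 8.15 of Myl1.

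The remaining fast genes build the Z-disc and thick filament or handle calcium. Actn3, the fast alpha actinin of the Z-disc, had 5.16, 5.05, 12.29 and 4.60, at least 34.2-fold higher in replicate 3. Mybpc2, the fast myosin binding protein C, had 5.93, 4.41, 13.23 and 4.29, at least 65.3-fold higher. Myoz1, the fast counterpart of Myoz2, had 6.89, 6.13, 11.55 and 5.46. For these 3 genes replicate 3 was the only sample over its threshold.

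The fast calcium-handling genes had some signal in other samples. Atp2a1, the calcium pump of the fast sarcoplasmic reticulum, had 7.56, 6.06, 11.97 and 7.52, over the threshold in replicates 1, 3 and 4. Casq1, the calcium buffer of that store, had 6.09, 7.63, 11.42 and 7.98, over the threshold in replicates 2, 3 and 4. Pvalb, a soluble calcium buffer of fast fibres, had 6.92, 6.39, 11.62 and 7.47. In replicate 4 both Pvalb and Atp2a1 passed the threshold of 7.36 by a small margin.

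Among genes of both fibre types the differences were graded. Ckm, muscle creatine kinase, had 5.64, 6.71, 13.03 and 7.26, at least 56.8-fold higher in replicate 3. Eno3, the muscle enolase of glycolysis, had 9.23, 9.01, 13.68 and 9.50, 21.65-fold higher in replicate 3 and over the threshold in all. Actn2, the alpha actinin of all striated fibres and heart, had 5.17, 7.16, 10.62 and 8.26. Here replicates 2 and 4 were also over their thresholds and replicate 1 was not. Tcap, the titin cap protein, had 8.63, 8.33, 10.50 and 8.31, 4.22-fold higher in replicate 3.

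Ldb3, a Z-disc protein, was over the threshold in every sample. It had 8.37, 10.64, 11.61 and 8.77, with replicate 3 only 0.97 above replicate 2. Its probe set 1416752_at separated replicate 3 further, at 10.04 against 4.78 to 6.51. In replicate 2 the smooth muscle list was also at its highest, with 10 of 10 genes highest there and a summed intensity of 104502. In replicates 1, 3 and 4 the sums were 35141, 69285 and 50342, and the part of smooth muscle in the Ldb3 level was not tested. Mybph, a relative of the binding protein C family, stayed under the threshold, with 4.23, 4.29, 5.58 and 4.62.

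Excitation-contraction coupling, the step from the nerve's signal to calcium release, was represented by 3 genes, beside 1 gene of the endplate. Ryr1, the calcium release channel, had 4.45, 4.33, 9.74 and 5.17, and its other probe set 10.43 in replicate 3 against 4.20 to 4.37. Cacna1s, the voltage sensor that opens it, had 4.85, 4.77, 8.14 and 4.80. Both were over the threshold in replicate 3 only. Jsrp1, a protein of the junction between those channels, had 5.17, 7.32, 8.91 and 7.13. Chrna1, the acetylcholine receptor subunit of the endplate, had 5.55, 5.13, 7.08 and 6.71, under the threshold in all 4 samples.

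The myogenic factors, which switch on muscle genes during fibre formation and are mostly low in mature fibres except Myf6, followed this order. Myf6 had 5.94, 4.61, 9.61 and 5.88, at least 5.33-fold higher in replicate 3. Myod1 had 6.34, 6.44, 7.71 and 6.53, and Myog 6.30, 4.63, 7.74 and 6.48. Those 2 exceeded the threshold of 7.56 in replicate 3 by a small margin, and none of the 3 was over the threshold in another sample.

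Some of these genes were read in every ureter sample. By limma's one-sided test of the mean over the 4 samples against the thresholds, 6 of 40 genes were above background (57.9% of all named genes): Tnni2, Myh7, Tnnt2, Eno3, Tcap and Ldb3. The same 6 were called when replicate 3 was left out. When probe sets ending in _x_at, _s_at or _a_at were dropped, 34 genes remained and 4 were called, Tnni2, Myh7, Eno3 and Ldb3. Counted sample by sample, 18 genes were over the threshold in replicate 3 alone, 6 in all 4 samples, and 7 in none, so 33 of 40 passed in at least 1 sample. Over all named genes 2.39% passed in replicate 3 alone, 58.4% in all samples and 23.4% in none. The 7 were Myl2, Tnni1, Myoz2, Myh6, Tnni3, Mybph and Chrna1. Myh6, the fast cardiac myosin, had 5.88, 4.18, 6.60 and 5.45. In the other direction, Myh3 was the only gene over the threshold in other samples but not in replicate 3.

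Of the 12 genes with several probe sets, 9 had all of them highest in the same sample. The exceptions were Myh1, Tnnt2 and Myh6. That share over all genes with several probe sets was not computed, and the 12 belong to a list picked on these levels. Of the 58 probe sets 50 were highest in replicate 3 (38.5% of all 45037 non-control probe sets were), and 28 were over the threshold there and nowhere else (3.65% of all).

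**Figure D4:**
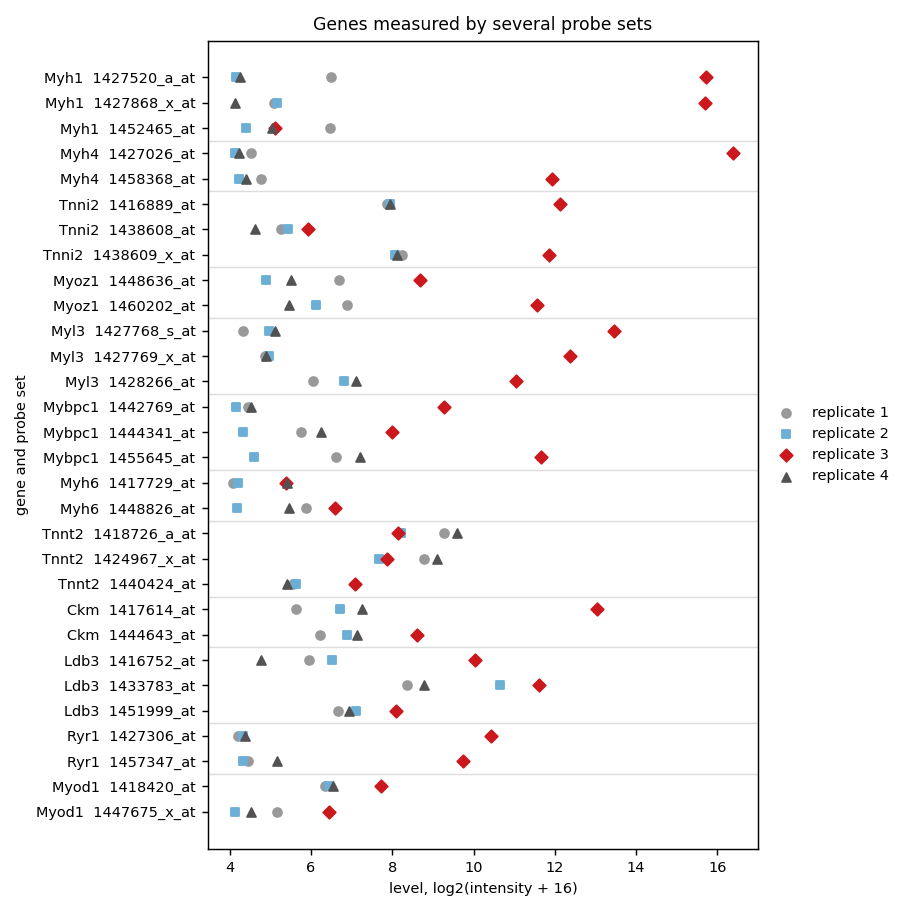
Level, log2(intensity + 16), of every probe set of the 12 genes that have several, with a marker per sample. Replicate 3 (red diamonds) lies far right for both Myh4 probe sets, at 16.39 and 11.92, and for 2 of the 3 Myh1 probe sets, while the remaining one reads 5.11.

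Other genes of the striated fibre, outside the 40, were set beside them from lists that were written with the earlier results known. Of 21 further sarcomere genes 20 passed the threshold in replicate 3 and 7, 8 and 7 did in replicates 1, 2 and 4. Over all named genes 67.4% passed it in replicate 3, and 66.9%, 68.5% and 66.0% did elsewhere. In replicate 3, 14 were over 2 log2 units above every other sample (1.86% of all named genes). Acta1, the skeletal alpha actin, had 4.72, 6.88, 14.90 and 4.35, and Neb, the ruler of the thin filament, 4.26, 4.10, 12.47 and 4.20. Ttn, the giant spring protein, had 6.25, 6.08, 9.90 and 6.92. Of 14 further coupling genes 7 had that gap, among them Trdn, with 4.46, 4.72, 11.53 and 4.66. Cav3 and Stac3, at 8.10 and 7.46 in replicate 3, had no such gap.

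Most energy genes of both metabolic types were highest in replicate 3. Of 8 glycolytic enzymes 5 had a gap over 2 log2 units there (1.86% of all named genes) and 8 had their highest level there (33.6%). Pgam2, the muscle phosphoglycerate mutase, had 4.56, 5.38, 13.08 and 4.85, Pygm, glycogen phosphorylase, 5.27, 4.58, 9.92 and 6.66, and Pfkm, phosphofructokinase, 9.80, 10.37, 12.64 and 10.63. Of 8 oxidative genes 6 had such a gap. Mb, myoglobin, had 6.85, 6.11, 13.98 and 6.40, and the muscle cytochrome oxidase subunits Cox6a2 and Cox7a1 had 11.59 and 9.10 in replicate 3 against 6.91 to 7.59 and 6.03 to 6.87. Without the gap were Fabp3, with 8.96 in replicate 3 against 7.91 to 8.23, and Ppargc1a, lowest there at 11.82. The slow genes were mixed in replicate 3, with 5 of 8 over the threshold. Those were Myh7 (11.73), Mybpc1 (11.65), Myl3 (11.04), Tnnt1 (8.10) and, by a small margin, Tnnc1 (7.67).

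Heart markers gave a single wide difference. Of 10 measured, 1 had a gap over 2 log2 units in replicate 3 (1.86% of all named genes), and their median deviation there was -0.12. That gene was Actc1, the cardiac alpha actin, which skeletal fibres also make, with 6.91, 7.42, 13.14 and 6.86. The chamber genes Nppa (6.08, 5.97, 4.72 and 5.06), Myl7 (6.06, 6.32, 5.45 and 5.99) and Tbx20 (5.49, 6.09, 5.65 and 6.56) were under the threshold in all samples, and so was Corin, at 4.36 to 7.07. Mybpc3 (7.69 to 8.71) and Myl4 (7.94 to 8.75) were over it in all samples with little difference between them. Nppb passed the threshold in replicates 1 and 2 only, at 7.69 and 7.34. Ryr2, at 7.42, 9.24, 7.53 and 9.31, and Nkx2-5, at 6.60, 7.16, 7.88 and 7.14, were not separated by replicate 3.

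Of 6 genes of satellite cells, the stem cells of muscle, 0 had a gap over 2 log2 units in replicate 3 (1.86% of all named genes). There 3 were over the threshold (67.4% of all named genes) and 4 had their highest level (33.6%). Their median deviation in replicate 3 was 0.73. Pax7, their defining factor, was under the threshold in all samples at 4.38 to 4.84, as were Myf5 at 4.08 to 6.03 and Calcr at 5.08 to 6.34. Pax3 had 8.61 in replicate 3 and 4.47 to 7.03 elsewhere, Cdh15 6.92 to 7.76, and Megf10 was highest in replicate 4 at 8.50. Of 8 further endplate genes 0 had such a gap. With so few genes and a share of 1.86%, a count of 0 says little for either list. Chrnb1 had 9.16, 9.73, 8.49 and 9.49, while Chrnd (4.84 to 5.15) and Chrne (4.53 to 5.99) were under the threshold.

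Most regulators of fibre type did not separate replicate 3. Of 10 measured, 6 were over the threshold in every sample, near the share of 58.4% of all named genes. Replicate 3 held the highest level of 3 of them, beside 33.6% of all named genes. Mef2a had 11.77 to 12.57, Mef2c 11.13 to 12.62, Mef2d 10.90 to 12.03, Nfatc1 10.08 to 11.09, Six4 9.46 to 11.90 and Sox6, a repressor of slow genes, 8.10 to 9.54. The exceptions were Tbx15, a factor of fast fibres, at 6.62, 5.83, 8.68 and 6.08, and Vgll2, at 7.12, 7.56, 9.43 and 7.95, both highest in replicate 3. Six4 was also highest there, by only 0.23. Tbx15 alone exceeded the next sample by over 2 log2 units. Prox1, a factor of slow fibres, had 6.36, 8.12, 5.96 and 7.41 and was lowest in replicate 3. Tead4 had 7.34, 4.79, 5.21 and 9.19.

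Replicate 3 stood apart in more than muscle genes. Of the 100 named genes with the widest gap there, 20 were among the 40. Of the 15 widest outside the 40, 7 were known muscle genes: Neb, Acta1, Pgam2, Mb, Trdn, Ckmt2 and Myom2. The other 8 were Msmb (16.27 against 4.76 to 7.43), a secreted protein of the prostate, Upk3a (14.91 against 4.55 to 7.03), Htr4 (12.65), 9530002B09Rik (14.49), Tmprss11a (13.01), Scube2 (12.22), Cyp4f15 (13.08) and Fabp4 (14.93 against 7.06 to 8.33).

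Markers of other tissues also differed between samples, not always with replicate 3 as the sample apart. Of 6 male reproductive genes, the prostate gene Pbsn had 15.41 in replicate 3 and 8.80 to 9.42 elsewhere, while Svs2, Svs4 and Svs5 were highest in replicate 2, and the list's summed intensity was 52526 in replicate 3 and 8637, 67825 and 3778 in replicates 1, 2 and 4. Pbsn made up 83.1% of the sum in replicate 3. All 6 fibroblast genes were lowest in replicate 3, as for Col3a1 at 13.41 against 15.37 to 16.07, with a sum of 20205 there against 77968 to 113735. All 6 liver genes were over the threshold in replicates 1 and 3 and highest in replicate 1, with sums of 46153 and 12237 there and 402 and 485 in replicates 2 and 4. Of 5 adipocyte genes 2 had the gap (1.86% of all named genes), Fabp4 and Adipoq (7.77 against 4.54 to 5.77). Cidec, Retn and Lep were under the threshold in all samples. The adipocyte sum was 31493 in replicate 3 and 204 to 457 elsewhere, but Fabp4 alone made up 99.2% of it in replicate 3, and the list's median deviation there was 0.13. Of 8 urothelial genes Upk3a and Krt20 (11.69 against 6.07 to 7.09) had it, with a list sum of 163788 against 91399 to 119478. Of 7 tendon genes, whose sums were 4688, 8181, 7626 and 6884, none did. The part of these tissues in the striated muscle levels was not tested.

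**Figure D5:**
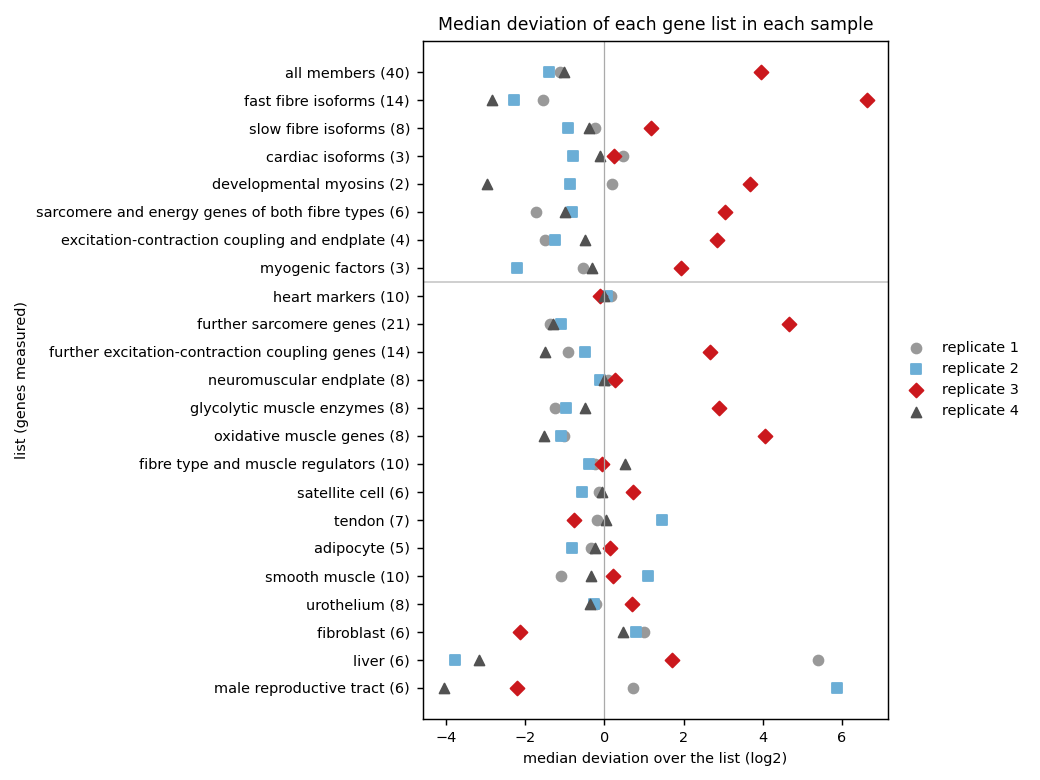
Median deviation in log2 units over each gene list (rows, with the number of genes measured) in each sample (markers), the 40 striated muscle genes and their classes above the line and other lists below. In replicate 3 the fast genes reach 6.64 and the further sarcomere genes 4.67, while heart markers sit at -0.12 and fibroblast genes at -2.14.

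Outside replicate 3 the 40 genes differed less between samples. Their median deviations were -1.13, -1.41 and -1.01 in replicates 1, 2 and 4, and without replicate 3 they were 0.12, -0.27 and 0.34, so 2 of these directions turned. Of the fast genes 2, 4 and 5 of 14 were over the threshold in those samples. The genes over it in replicate 2 but not in replicate 1 or 4 were Myh2, Tnnt1 and Jsrp1, at 7.11, 8.42 and 7.32.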

How the data were processed

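The 4 adult ureter samples were unpooled, and their RNA went through 2 rounds of amplification before Affymetrix MOE430 arrays were run, per the labels' protocols. The deposited values are intensities on a linear scale, scaled by the authors so that each array's trimmed mean (without the top and bottom 2%) is the same. The submitters' processing notes list GCOS. Its version is not given in the sources used here. Control probe sets (64) were dropped. Among the others, 34945 probe sets have 1 symbol, 932 several and 9160 none, and only those with 1 symbol name a gene.

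Levels were computed as log2(intensity + 16) from the deposited intensities, without further normalization. A gene's level is its probe set with the highest mean. A sample's threshold is the 95th percentile of 87 chemosensory receptor probe sets. limma 3.58.1 in R 4.3.3 tested the mean distance to the threshold over all 45037 probe sets, one-sided, with Benjamini-Hochberg adjustment at 0.05, and a gene was called by any of its probe sets. These p-values measure only the spread between these samples, which may be technical. Intensities carry no counts, so 4 arrays limit the precision. The test was checked on simulated data.

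Named genes are all 40 members, the first 3 measured genes of each other list, any gene of the heart, satellite cell and regulator lists, and the 15 other genes with the widest gap in replicate 3. Further genes of the lists, such as Pbsn, Krt20, Chrnb1 or Lep, were named after their values were seen. The members and lists were chosen with earlier results of these data known. Promoter windows are RefSeq's, found for 32 genes. Protein sequences are not used here. Alternatives were the pseudocount, the threshold, quantile normalization, the choice of probe set, the size of the gap and leaving out each sample. Python 3.11.15 with numpy 2.4.6, pandas 2.3.3, scipy 1.17.1 and matplotlib 3.10.9 was used.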

Additional observations from a re-analysis of the deposited data

Results flagged for a closer look

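A sample standing apart was looked for with Dixon's ratio, the gap between the highest or lowest sample and its nearest neighbour divided by the range over the 4 samples. It was computed for all 40 genes, every measured gene of the other lists and the 15 other genes with the widest gap in replicate 3, which came to 179 genes. Of these 37 had a ratio above the 95% critical value for 4 samples, as did 6.85% of all named genes. Chance flags about 1 in 20 groups, but many of the 179 were chosen on these same levels, so their count is not read against either share.

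Of the 37 genes 13 were among the 40. In 12 of them replicate 3 was the high sample. Among fast isoforms the ratio was 0.969 for Myh4, 0.941 for Mylpf, 0.942 for Tnnc2, 0.956 for Tnni2 and 0.927 for Actn3. For Tnnc1 and Myh8 it was 0.865 and 0.834. Eno3 and Tcap had 0.896 and 0.852, the coupling genes Cacna1s and Ryr1 had 0.975 and 0.844, and the myogenic factor Myod1 had 0.866. Myh7, with 0.868, was the exception, since replicate 2 was its low sample.

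The other 24 genes lay outside the 40, and replicate 3 was the high sample in 22 of them. Those of the sarcomere and of coupling were Neb (0.981), Myom1 (0.853), Lmod2 (0.963), Trim63 (0.912), Trim54 (0.835), Synpo2l (0.906), Actc1 (0.910) and Trdn (0.963). Those of muscle metabolism were Pgam2 (0.904), Ampd1 (0.888), Phkg1 (0.976), Mb (0.907), Ckmt2 (0.912), Cox6a2 (0.855) and Cox8b (0.903). Myf5 (0.896) was under the threshold in all samples. The remaining ones were Pbsn (0.907), Fabp4 (0.839), Htr4 (0.896), Tmprss11a (0.928), Scube2 (0.918) and Cyp4f15 (0.864). In the fibroblast genes Dcn (0.945) and Lum (0.847) replicate 3 was the low sample.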

How the results depend on the processing

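For results over the whole list, 117 of 123 alternative values stayed within 1.5 times a count or 1 SD of a value. That SD is wide, and 2 of the 117 turned direction: without replicate 3 the median deviation went to 0.12 in replicate 1 and 0.34 in replicate 4. With a threshold 3 median absolute deviations over the receptor median, genes above background numbered 2 in place of 6, and genes over the threshold 2 in replicate 1, 1 in replicate 2 and 3 in replicate 4. With the 99th percentile replicate 4 had 7. Leaving out 1 sample at a time gave 0 to 1 gene with a gap over 2 log2 units in replicate 1, the 1 being without replicate 2. In replicate 3 the median deviation ran from 3.35 to 4.44 and the count with the gap from 20 to 25, or 29 with a gap over 1. Of 314 values for single genes 304 stayed within 1 SD of that gene over the 4 samples. That SD was wide where replicate 3 stood apart, as for Myh4 at 6.05. The Myh4 deviation of 9.78 by medians over probe sets, against 12.10, thus counted as within 1 SD. Of the 314 values 3 turned direction. Tnni3 in replicate 3 went from 0.23 to -0.003 with quantile normalization. Myh1 in replicate 3 went to -0.19 and Tnnt2 in replicate 4 from 1.06 to -0.67 when _x_at, _s_at and _a_at probe sets were dropped, since another probe set is then read. Myl3 in replicate 3 went from 4.39 to 7.40 with medians over probe sets, where 1427768_s_at and 1427769_x_at also count. The cause of the other changes was not tested. limma was not run on medians over probe sets. Signal over background limits the dim genes, and 7 passed the threshold in no sample. With quantile normalization some small deviations in replicate 3 shrank, as for Tnnc1 from 1.25 to 0.71 and Myod1 from 1.28 to 0.74. No paired analysis was possible because all samples belong to 1 group.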
